A study of Mus musculus with 6 samples.

Results

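The 10 genes described here, Nos2, Slc7a2, Ass1, Asl, Gch1, Ddah2, Arg1, Arg2, Odc1 and Acod1, encode the uptake and use of arginine, the making of nitric oxide and the making of itaconate. They were taken by name for their roles, with earlier results of these data known, and all 10 are among the 21780 genes of the count table. The cells were CD45+CD11b+ myeloid cells sorted from the pancreas of mice 7 days after an intraperitoneal (IP) injection of PBS or of WGP. WGP stands for whole β-glucan particles, hollow yeast cell walls rich in β-glucan. The study's methods give 1 mg of WGP as the injected dose, wild-type C57BL/6 mice aged 6 to 8 weeks, and both males and females. No allele or other agent differed between the groups. The labels do not give the sex of the animal behind each library, and Y-linked counts, described below, marked PBS replicates 2 and 3 and no WGP library. Each group had 3 libraries, PBS replicates 1 to 3 and WGP replicates 1 to 3, and the study's text describes each sample as a separate animal of a single experiment.

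Arginine stands at a fork in macrophages. Inducible nitric oxide synthase turns it into nitric oxide and citrulline, and arginases turn it into ornithine and urea, so the enzymes draw on a shared substrate that cationic amino acid transporters bring into the cell. Citrulline can be turned back into arginine, ornithine feeds the polyamines, and itaconate, made from a citric acid cycle intermediate in the mitochondrion, is a metabolite that activated macrophages accumulate.

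The PBS libraries held 35334645 to 40580936 counts each and the WGP libraries 38240913 to 43341834. Levels below are CPM, counts scaled to a common library size by TMM, and means carry the SD of 3 libraries. Leukocyte and myeloid markers, among them Ptprc, Itgam and Csf1r, were present in every library, with 2 of 8 called higher. Their sums of 9960 to 16118 CPM in PBS and 22814 to 24160 CPM in WGP differed mostly through Lyz2, and without it they were 5027 to 7888 CPM and 7157 to 7364 CPM. Defining markers of resident macrophages fell, with 8 of 8 called lower and sums of 5172 to 13340 CPM in PBS against 936 to 1095 CPM in WGP. Of 8 Ly6C-high monocyte markers 5 were called higher, and their sums were 761 to 1365 CPM in PBS against 3522 to 4007 CPM in WGP. Chil3 and Fcnb, of the same list, had groups that overlapped, with Fcnb at 29.0, 9.19 and 2.81 CPM in PBS and 2.71, 4.05 and 3.03 CPM in WGP. In these bulk samples fewer cells of a type and less RNA per cell cannot be told apart, for these markers and for the genes below. WGP replicate 2 stood apart by fibroblast markers, at 1803 CPM in sum against 48.2 and 33.7 CPM in the other WGP libraries, and by mesothelial markers, at 54.7 against 1.28 and 3.18 CPM. PBS replicate 1 stood apart by B cell markers, at 2414 CPM against 621 and 361 CPM, and by neutrophil markers, at 5308 against 2739 and 1585 CPM. Counts of 4 Y-linked genes were 8972 and 10063 in PBS replicates 2 and 3 and at most 1 in each of the other 4 libraries. A fit in which a covariate marks libraries with Y-linked counts therefore compares PBS replicate 1 with the WGP libraries.

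Nitric oxide synthase, the cationic transporter, argininosuccinate synthase, both arginases and the itaconate-making enzyme were higher after WGP. Of the 10 genes, 6 were called higher, 1 lower and 3 not called by edgeR's quasi-likelihood test. A call required an adjusted p of at most 0.05 over all 14429 genes tested and a change of at least 1 on the log2 scale in either direction. Of all genes tested, 4.53% were called higher and 4.96% lower. Every WGP library lay above every PBS library in 7 of the 10 genes, against 16.0% of all genes tested. In 2 genes every WGP library lay below every PBS library, against 16.1% of all genes tested, and only Odc1 had groups that overlapped. The median log2 fold change was 1.89 over the 10 genes and -0.05 over all genes tested. All 10 passed the filter of 10 normalized counts summed over the libraries, with Nos2 passing only through its WGP counts.

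**Figure D1:**
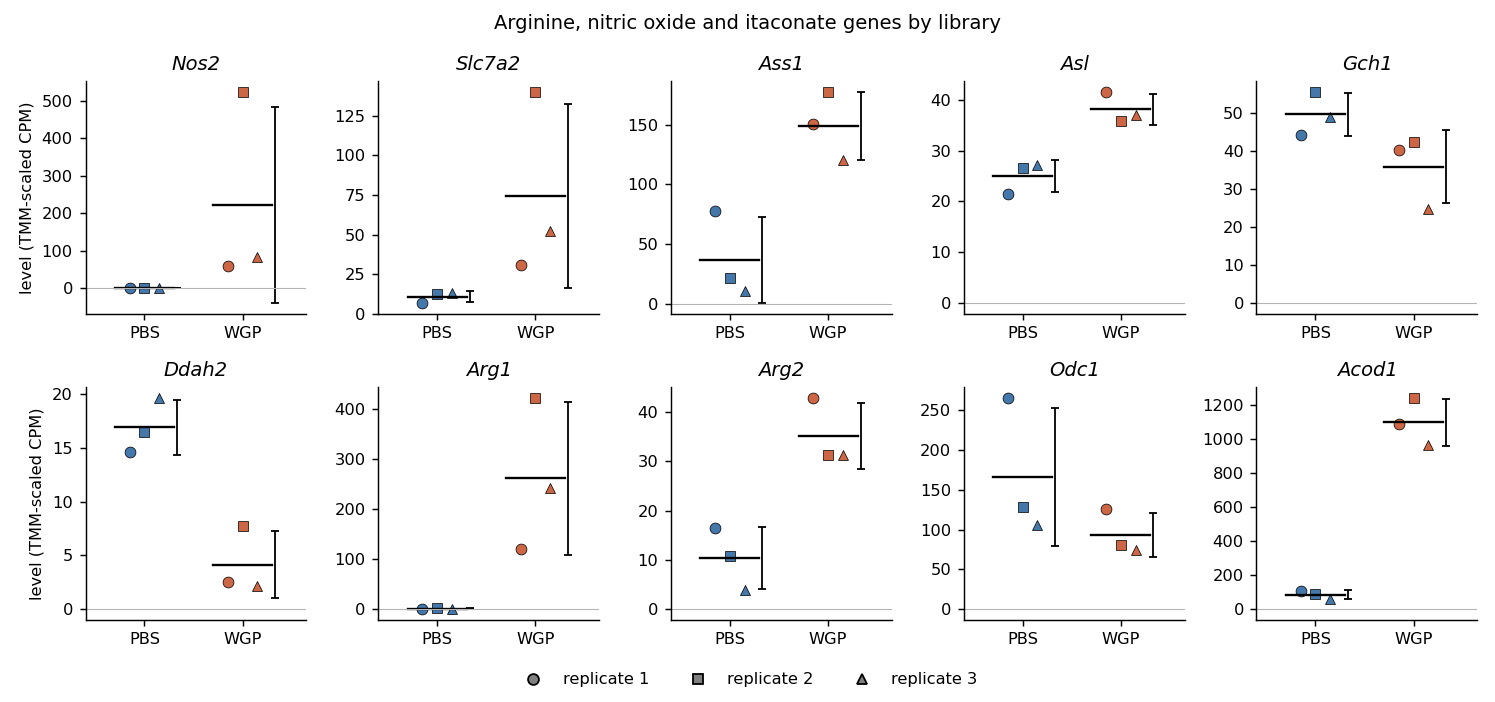
Each panel plots 1 gene, with its level in TMM-scaled CPM on a linear y axis and the PBS (blue) and WGP (orange) libraries side by side, the symbol's shape giving the replicate number. Horizontal lines are means and brackets are ± 1 SD (n = 3); the groups overlap only for Odc1, and Nos2 and Arg1 are at or near 0 in all PBS libraries.

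RefSeq promoters, 250 bases before to 50 after the transcript start, were matched for 5 of the 10 genes in the GRCm38.p6 build. Those of Acod1 and Ass1, which rose, and of Ddah2, which fell, are shown to give the sequence at which their transcripts begin, with each motif match in capitals. The letters searched on both strands were TTCNNNGAA for GAS, an element of interferon gamma responses, a pair of GAAA with 2 free bases between them for ISRE, GGG and CC with 5 free bases between them for NF-kB, TTGCNNNAA for C/EBP, CACGTG for the E-box, ACGTG for HRE, the element bound by HIF1, and TATAAA for the TATA box.
Acod1 at chr14:103046762-103047061, plus strand: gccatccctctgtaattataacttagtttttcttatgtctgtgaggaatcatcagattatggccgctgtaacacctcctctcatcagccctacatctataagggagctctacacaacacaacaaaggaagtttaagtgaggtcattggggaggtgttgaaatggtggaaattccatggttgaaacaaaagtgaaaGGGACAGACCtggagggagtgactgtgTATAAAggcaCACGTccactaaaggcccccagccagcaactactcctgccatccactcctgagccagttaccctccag
Ass1 at chr2:31470020-31470319, plus strand: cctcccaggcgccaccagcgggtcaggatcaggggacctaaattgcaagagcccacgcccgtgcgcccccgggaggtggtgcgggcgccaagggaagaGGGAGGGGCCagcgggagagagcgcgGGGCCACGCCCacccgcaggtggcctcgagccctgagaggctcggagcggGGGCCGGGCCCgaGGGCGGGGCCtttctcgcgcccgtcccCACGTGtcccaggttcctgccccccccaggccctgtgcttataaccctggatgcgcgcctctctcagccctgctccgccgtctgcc
Ddah2 at chr17:35058785-35059084, plus strand: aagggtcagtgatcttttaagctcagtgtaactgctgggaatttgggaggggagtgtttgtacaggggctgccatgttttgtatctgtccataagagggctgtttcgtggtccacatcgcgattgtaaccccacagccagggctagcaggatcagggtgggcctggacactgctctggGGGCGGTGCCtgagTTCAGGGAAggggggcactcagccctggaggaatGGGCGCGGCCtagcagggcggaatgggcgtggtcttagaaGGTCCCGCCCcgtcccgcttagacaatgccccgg
In the Acod1 promoter the capitals mark, in order, an NF-kB match at base -55 from the transcript start, a TATA box at -28 and an HRE match at -18. In the Ass1 promoter they mark 6 overlapping or separate NF-kB matches between -152 and -63 and an E-box at -36 that also holds HRE letters. In the Ddah2 promoter they mark NF-kB matches at -72, -24 and 17 and a GAS match at -58. Loose motifs match often. Of 32851 promoters, 50.8% held the NF-kB letters, 19.6% HRE, 13.6% the TATA box, 9.56% C/EBP, 8.30% GAS, 7.15% the E-box and 3.44% ISRE. The promoters also differed in base composition, with a GC content of 47.0% for Acod1, 74.0% for Ass1 and 59.7% for Ddah2 against a median of 52.7% for all promoters. A match describes letters and is not a measured site.

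Nos2 (ENSMUSG00000020826, chr11:78920787-78960254, plus strand) encodes inducible nitric oxide synthase, the enzyme that makes nitric oxide in activated macrophages. No PBS library had a count of it, and WGP replicates 1, 2 and 3 had 2207, 21768 and 3420 counts. These counts correspond to 59.9, 525 and 83.6 CPM, so every WGP library held Nos2 and no PBS library did. With a floor of 3 counts over the PBS group, Nos2 was at least 8788-fold higher in WGP (edgeR adjusted p = 0.000489). The most frequent low count of a library, a guide to how many reads stand for 1 molecule, was between 19 and 41. Raising the floor to 123 counts, which is 3 times the largest such count among the PBS libraries, lowered the bound to 214-fold. WGP replicate 2 held 7.32 times the mean of the other WGP libraries, and without it the bound was at least 2829-fold. With limma-voom the call was lost at an adjusted p of 0.213, the highest over the alternatives, whose lowest was 5.18e-14.

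Slc7a2 (ENSMUSG00000031596, chr8:40862396-40922308, plus strand) encodes a cationic amino acid transporter (CAT2) that carries arginine into the cell. It measured 6.63, 12.3 and 12.9 CPM in the PBS libraries and 30.4, 140 and 52.2 CPM in the WGP libraries. All WGP libraries lay above the PBS libraries, and WGP replicate 2 held 3.40 times the mean of the other two. The mean rose from 10.6 ± 3.48 to 74.3 ± 58.2 CPM, a log2 fold change of 2.80 ± 0.51 (SE, edgeR adjusted p = 0.00443). Without WGP replicate 2 the log2 fold change was 1.96 (adjusted p = 0.00557). Slc7a2 was called under each of the 19 alternatives tried, with log2 fold changes of 1.71 to 3.49. A long noncoding gene on the opposite strand, Gm26584, shares 635 exonic bases with it, and reads of both cannot be told apart because the strand setting of the counting is not given in the sources used here.

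Slc7a1, which encodes the widely expressed transporter CAT1, ran the other way without passing the test, at 59.8 ± 32.0 CPM in PBS and 29.5 ± 5.05 CPM in WGP (edgeR adjusted p = 0.0745). Per kb of exon, the level of Slc7a2 was 0.0875, 0.316 and 0.476 of that of Slc7a1 in the PBS libraries and 1.16, 5.61 and 2.77 times that of Slc7a1 in the WGP libraries. The more abundant of these transcripts per kb was thus Slc7a1 in every PBS library and Slc7a2 in every WGP library. Slc7a3, another gene of the family, had counts of 46, 0 and 36 in PBS and 0 in each WGP library (adjusted p = 0.261).

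Gch1 (ENSMUSG00000037580, chr14:47153895-47189413, minus strand) encodes GTP cyclohydrolase, the first enzyme in making tetrahydrobiopterin, the cofactor of nitric oxide synthases. It did not follow Nos2. It measured 44.3, 55.7 and 49.0 CPM in PBS and 40.3, 42.5 and 24.8 CPM in WGP. The WGP libraries all lay below the PBS libraries, yet the difference did not pass the test, with means of 49.7 ± 5.71 and 35.8 ± 9.63 CPM, a log2 fold change of -0.47 ± 0.23 and an edgeR adjusted p of 0.233. No alternative called it.

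Ddah2 (ENSMUSG00000007039, chr17:35059035-35062095, plus strand), whose product belongs to the dimethylarginine dimethylaminohydrolase family, known for breaking down methylarginines that inhibit nitric oxide synthases, was the only gene of the 10 called lower. It measured 14.6, 16.5 and 19.7 CPM in PBS and 2.52, 7.77 and 2.15 CPM in WGP. The PBS libraries were all above 14 CPM and WGP replicate 2 was the highest of the WGP libraries, at 3.32 times the mean of the other two. The mean went from 16.9 ± 2.57 to 4.15 ± 3.14 CPM, a log2 fold change of -2.03 ± 0.52 (edgeR adjusted p = 0.0246). Leaving out WGP replicate 2 gave -2.85 (adjusted p = 0.00125). The call was lost without PBS replicate 2, without PBS replicate 3, without WGP replicate 1 and without WGP replicate 3, at adjusted p values of 0.0718 to 0.0872, and with the Y-linked covariate (adjusted p = 0.117). The paralogue Ddah1 had 140, 0 and 63 counts in PBS and 18, 0 and 0 in WGP (adjusted p = 0.459).

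Ass1 (ENSMUSG00000076441, chr2:31470207-31520672, plus strand) encodes argininosuccinate synthase, which joins citrulline and aspartate in the first step of remaking arginine. Its levels were 77.8, 21.3 and 11.0 CPM in PBS and 150, 177 and 120 CPM in WGP. PBS replicate 1 held 4.81 times the mean of the other PBS libraries and still lay below every WGP library. The mean rose from 36.7 ± 35.9 to 149 ± 28.4 CPM, a log2 fold change of 2.02 ± 0.57 (edgeR adjusted p = 0.0386). Without PBS replicate 1 it was 3.20 (adjusted p = 0.000101), and with the Y-linked covariate it was 0.94 (adjusted p = 0.136). The call was lost in 8 of 19 alternatives, among them DESeq2 (adjusted p = 0.0709), and leaving out PBS replicate 2 or any 1 of the WGP replicates (adjusted p of 0.0668 to 0.144), with the direction kept in all 19.

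Asl (ENSMUSG00000025533, chr5:130011258-130029247, minus strand) encodes argininosuccinate lyase, which completes the step to arginine. It measured 21.5, 26.6 and 27.2 CPM in PBS and 41.6, 35.8 and 37.1 CPM in WGP. The groups did not overlap, but the difference was small and not called, with means of 25.1 ± 3.16 and 38.2 ± 3.08 CPM, a log2 fold change of 0.60 ± 0.20 and an edgeR adjusted p of 0.0727. Per kb, Ass1 stood at 7.25, 1.60 and 0.809 times Asl in the PBS libraries and at 7.22, 9.91 and 6.49 times in the WGP libraries. The ratio in PBS replicate 1 lay among those of the WGP libraries, and the ratios in PBS replicates 2 and 3 lay below them.

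Arg1 (ENSMUSG00000019987, chr10:24915221-24927484, minus strand) encodes arginase 1, the cytosolic enzyme that splits arginine into ornithine and urea and a common marker of alternatively activated macrophages. It had 0, 63 and 47 counts in the PBS libraries and 4424, 17544 and 9909 counts in the WGP libraries. The PBS counts were 0, 2.25 and 1.68 times the most frequent low count of their library, and the WGP counts were 233, 548 and 354 times it. Levels were 0, 1.62 and 1.15 CPM in PBS and 120, 423 and 242 CPM in WGP. The mean rose from 0.922 ± 0.832 to 262 ± 152 CPM, a log2 fold change of 8.14 ± 0.88 (edgeR adjusted p = 0.00019). WGP replicate 2 held 2.34 times the mean of the other WGP libraries, and without it the log2 fold change was 7.61. Over all 6 libraries left out in turn it ran from 7.56 without PBS replicate 1 to 8.80 without PBS replicate 2. Arg1 was called under each of the 18 alternatives that kept it, with adjusted p values of 7.79e-08 to 0.0472. With the Y-linked covariate its fitted fold rests on PBS replicate 1, where it had no counts.

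Arg2 (ENSMUSG00000021125, chr12:79130777-79156301, plus strand) encodes arginase 2, the mitochondrial form. It measured 16.5, 10.8 and 3.91 CPM in PBS and 42.9, 31.3 and 31.3 CPM in WGP. The groups were separate, and the mean rose from 10.4 ± 6.30 to 35.1 ± 6.71 CPM, a log2 fold change of 1.75 ± 0.44 (edgeR adjusted p = 0.0229). Per kb, Arg1 was at 0, 0.0957 and 0.188 of Arg2 in the PBS libraries and at 1.79, 8.68 and 4.97 times Arg2 in the WGP libraries. Arginase transcript was thus mostly Arg2 in PBS and mostly Arg1 in WGP. The call of Arg2 was lost without PBS replicate 2, without WGP replicate 1 and without WGP replicate 3 (adjusted p of 0.0517 to 0.0869) and with the Y-linked covariate, where the log2 fold change was 1.09 (adjusted p = 0.252). Arg2 shares 401 exonic bases with other genes, among them the opposite-strand Vti1b, so part of its counts is uncertain.

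Odc1 (ENSMUSG00000011179, chr12:17544794-17551505, plus strand) encodes ornithine decarboxylase, which turns ornithine into putrescine, the first polyamine. It measured 265, 128 and 105 CPM in PBS and 125, 81.0 and 73.8 CPM in WGP. WGP replicate 1 lay above PBS replicate 3, and PBS replicate 1 held 2.28 times the mean of the other PBS libraries. The difference was not called, with means of 166 ± 86.7 and 93.4 ± 27.9 CPM, a log2 fold change of -0.83 ± 0.33 and an edgeR adjusted p of 0.137. The estimate depended on PBS replicate 1, since without it the log2 fold change was -0.32 (adjusted p = 0.429), and with the Y-linked covariate, which rests on that library, it was -1.51 and called (adjusted p = 0.00627). Both arginase genes were called higher, and the gene of the decarboxylase that takes their product was not.

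Acod1 (ENSMUSG00000022126, chr14:103046977-103056573, plus strand), also known as Irg1, encodes aconitate decarboxylase 1, the enzyme that makes itaconate. It measured 108, 90.8 and 60.8 CPM in PBS and 1088, 1243 and 966 CPM in WGP. All WGP libraries lay far above all PBS libraries, and WGP replicate 2 and PBS replicate 1 were at 1.21 and 1.42 times the mean of the other 2 libraries of their groups. The mean rose from 86.6 ± 23.9 to 1099 ± 139 CPM, a log2 fold change of 3.67 ± 0.23 (edgeR adjusted p = 1.23e-05). This SE was the smallest among the 7 called genes. All 19 alternatives called it, with log2 fold changes of 3.35 to 3.85 and adjusted p values up to 0.000271.

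**Figure D2:**
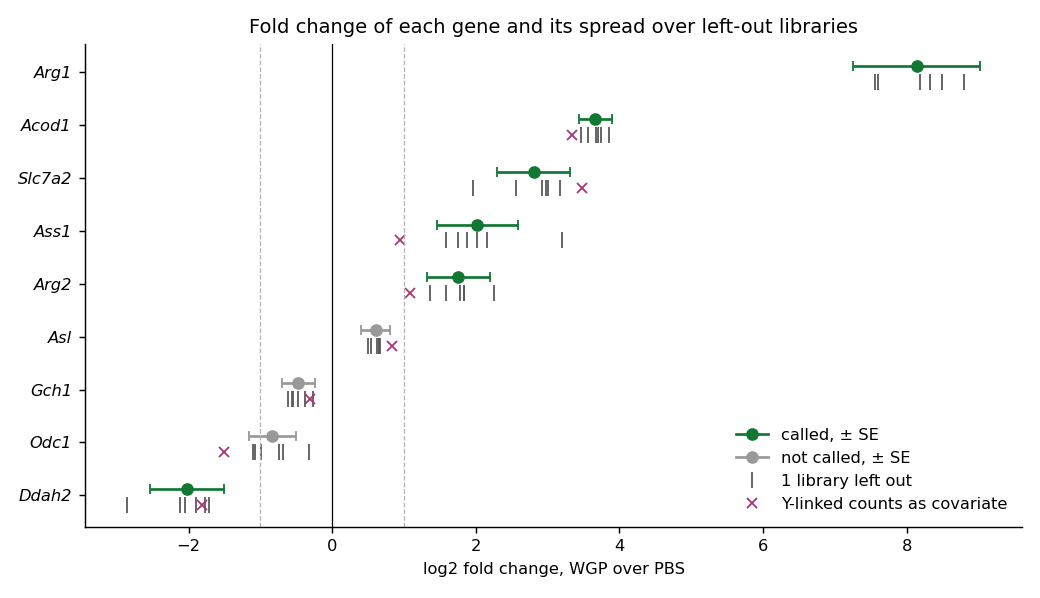
The x axis is the log2 fold change of WGP over PBS for 9 of the genes (Nos2, at 0 counts in PBS, is left out), with filled circles and bars for the estimate ± SE in green where called and grey where not. Grey ticks are the estimates with 1 library left out and crosses those with the Y-linked covariate (not drawn for Arg1); the ticks of Acod1 lie close together, while those of Ass1 reach 3.20 without PBS replicate 1 and its cross lies at 0.94.

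Per kb of exon, Odc1 was the most abundant of the 10 in PBS, at 48.8 ± 25.4 CPM per kb, followed by Acod1 at 33.0 ± 9.11, Ass1 at 15.2 ± 14.9 and Ddah2 at 10.6 ± 1.61. The ranges of these neighbours overlapped. Gch1, Arg2 and Asl followed at 7.95, 7.29 and 5.19 CPM per kb, Slc7a2 at 1.16 and Arg1 at 0.414, and Nos2 was at 0. Slc7a2 was separated in range from Asl above it. From Arg1 below it the gap was negligible, with a lowest Slc7a2 value of 0.7262 and a highest Arg1 value of 0.7258 CPM per kb.

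After WGP the order was another. Acod1 led at 419 ± 52.9 CPM per kb, above 99.5% of all genes tested, and its range did not reach that of the next gene. Arg1 at 117 ± 68.4, Ass1 at 61.8 ± 11.8, Nos2 at 50.5 ± 59.4, Odc1 at 27.4 ± 8.20 and Arg2 at 24.6 ± 4.70 followed, each overlapping its neighbour. Slc7a2 at 8.14 and Asl at 7.90 overlapped each other, as did Gch1 at 5.73 and Ddah2, the lowest. Arg1 exceeded Nos2 per kb in every WGP library, by 3.97, 1.60 and 5.74 times, so transcripts of both enzymes that use arginine were present in each of them.

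The 10 genes did not vary alike among the WGP libraries. Nos2, Slc7a2, Ddah2 and Arg1 were at 7.32, 3.40, 3.32 and 2.34 times the mean of the other two in WGP replicate 2, and the other 6 genes at 0.814 to 1.31 times. In that library the fibroblast markers were at 44.0 times and the mesothelial markers at 24.6 times the mean of the others. T cell markers were at 2.72 times, acinar at 1.59, endothelial at 1.56, B cell at 1.42 and NK cell at 1.35 times. Its Ly6C-high monocyte, resident macrophage and neutrophil markers were at 0.887, 1.06 and 1.04 times. Eosinophil and conventional dendritic cell markers were at 0.554 and 0.549 times. In PBS replicate 1 Ass1, Odc1 and Arg2 were at 4.81, 2.28 and 2.24 times the mean of the other PBS libraries, beside 4.91 times for B cell, 4.80 for mesothelial, 3.96 for eosinophil, 3.84 for mast cell and basophil, 3.23 for endothelial, 2.78 for NK cell and 2.46 for neutrophil markers, and 0.437 times for resident macrophage markers. Leaving out both of these libraries was chosen after the data were seen. In that fit 6 of the 10 genes were called higher and 1 lower, and the log2 fold change of Slc7a2 was 1.71. Of the 13880 genes tested in it, 699 were called higher and 896 lower. The part of other cell types in these levels was not tested.

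**Figure D3:**
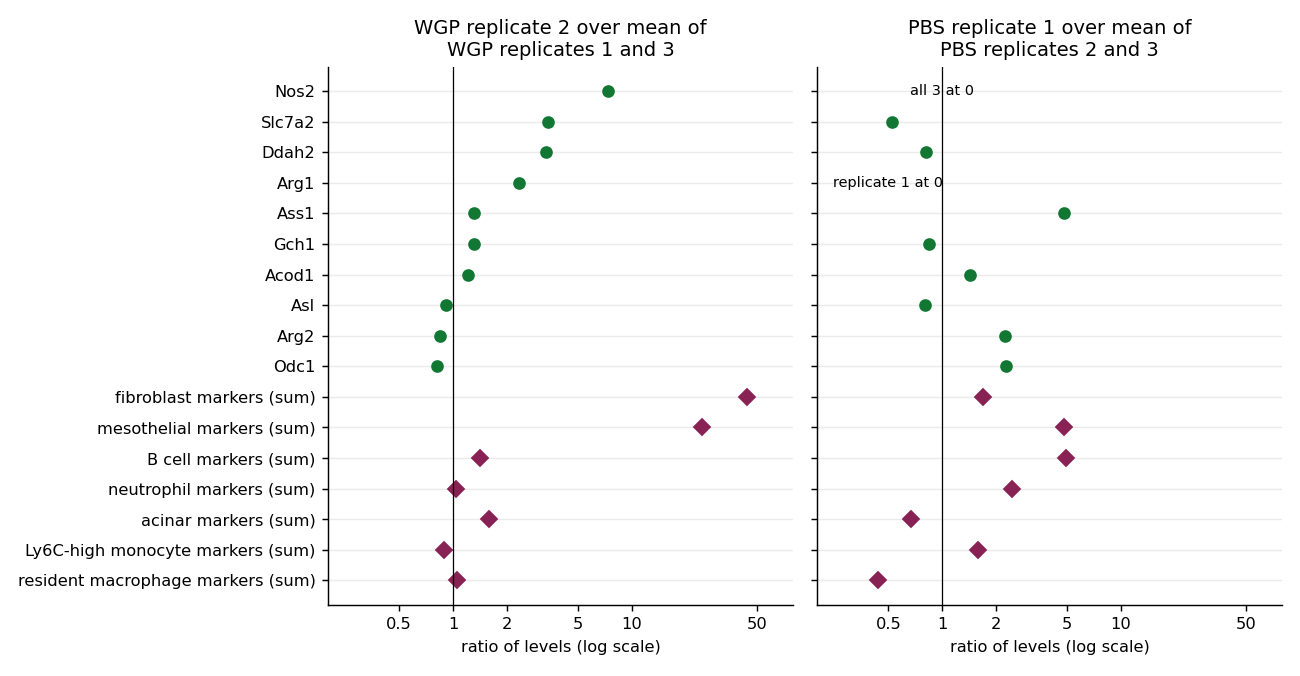
The left panel plots the level in WGP replicate 2 divided by the mean of WGP replicates 1 and 3, and the right panel PBS replicate 1 divided by the mean of PBS replicates 2 and 3, on a log x axis, for the 10 genes (green circles) and for summed markers of 7 cell types (purple diamonds). Nos2 at 7.32 is the farthest of the genes on the left beside fibroblast markers at 44.0, and Ass1 at 4.81 is the highest of the 8 genes drawn on the right, beside B cell markers at 4.91; Nos2, at 0 in all PBS libraries, and Arg1, at 0 in PBS replicate 1, have no point there and are marked in words.

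Of 78 related genes in 5 lists, 72 were tested, of which 8 were called higher and 5 lower, and 6 were at 0 in all libraries. Over all 14429 genes tested the shares were 4.53% called higher and 4.96% called lower. None of the 12 tested genes of nitric oxide synthesis and its cofactor was called, and their median log2 fold change was -1.12, drawn from several genes with few counts. Nos1 and Nos3, the neuronal and endothelial synthases, had 28, 32 and 0 and 0, 45 and 41 counts in the PBS libraries and 0 in every WGP library (edgeR adjusted p of 0.298 and 0.256). Nos2 was therefore the only synthase with counts after WGP. Pts and Spr, which act after Gch1 in making tetrahydrobiopterin, were at 35.7 ± 6.54 and 25.7 ± 2.97 CPM in PBS and 32.5 ± 16.3 and 22.2 ± 2.78 CPM in WGP.

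Arginine transport and supply had 10 genes tested and none called (median log2 fold change -0.03). Gatm, which uses arginine to make the precursor of creatine, passed the adjusted p alone, going from 120 ± 25.2 to 61.2 ± 19.0 CPM with a log2 fold change of -0.97 (edgeR adjusted p = 0.0199). Cps1, Otc and Nags, genes of mitochondrial enzymes at the start of the urea cycle in the liver, were at 0 in all 6 libraries.

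Among 19 tested genes of ornithine and the polyamines, Smox was the only one called (median log2 fold change -0.36). Smox, which encodes spermine oxidase, rose from 47.8 ± 6.60 to 110 ± 17.2 CPM, a log2 fold change of 1.20 ± 0.18 (edgeR adjusted p = 0.00121). Sat1, which encodes the acetyltransferase that starts polyamine breakdown, went from 637 ± 29.6 to 325 ± 42.3 CPM (log2 fold change -0.97, adjusted p = 0.00161), short of the fold required. Oat, ornithine aminotransferase, and Azin1, an inhibitor of the antizymes that degrade ornithine decarboxylase, also passed the adjusted p alone, with log2 fold changes of -0.67 and -0.63 (adjusted p of 0.0182 and 0.0214). Sat1, Oat and Azin1 are named after their values were seen.

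The neighbours of itaconate moved in both directions, with 2 called higher and 3 lower of 16 tested (median log2 fold change 0.38). Rab32, a small GTPase known for delivering itaconate to vacuoles that hold bacteria, rose from 56.4 ± 2.28 to 215 ± 29.5 CPM (log2 fold change 1.93, edgeR adjusted p = 2.89e-05). Nfe2l2, which encodes the antioxidant regulator NRF2 that itaconate activates through KEAP1, rose from 222 ± 31.3 to 576 ± 82.1 CPM (1.38, adjusted p = 0.000411). Slc13a3, a dicarboxylate carrier, fell from 34.7 ± 6.83 to 10.4 ± 2.01 CPM (log2 fold change -1.74, adjusted p = 0.00144). Atf3 and Nfkbiz, stress and inflammation genes that take part in the known response to itaconate, fell by 1.51 and 1.54 on the log2 scale (adjusted p of 0.000344 and 0.000755). Of the 4 subunits of succinate dehydrogenase, the enzyme that itaconate inhibits, Sdhd and Sdhb passed the adjusted p alone with log2 fold changes of 0.99 and 0.76, and Sdha and Sdhc did not (0.20 and 0.30).

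Of 15 transcription factors and receptors known to act on Nos2, Acod1 or Arg1, 5 were called higher and 2 lower (median log2 fold change 0.67). Irf1, a transcription factor induced by interferons, rose by 2.30 (edgeR adjusted p = 0.000153) and the interferon gamma receptor chain Ifngr2 by 1.51 (adjusted p = 5.44e-05), both on the log2 scale. Hif1a, the hypoxia factor, rose from 127 ± 2.23 to 737 ± 155 CPM (2.53, adjusted p = 1.9e-05) and Cebpb, a factor of myeloid cells, from 185 ± 31.0 to 504 ± 45.4 CPM (1.45, adjusted p = 0.000272). Klf4, a factor linked to alternative activation, fell by 2.20 (adjusted p = 6.23e-05) and Myc fell by 2.11 (adjusted p = 0.00333). Irf8, Stat3 and the interleukin 4 receptor chain Il4ra passed the adjusted p alone, with log2 fold changes of 0.96, 0.72 and 0.67. Their edgeR adjusted p values were 0.00521, 0.00716 and 0.0272. Stat6, which acts on Arg1 after interleukin 4, and Rela, a subunit of NF-kB, were not called. Their log2 fold changes were 0.48 and 0.16 (adjusted p of 0.0531 and 0.511).

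**Figure D4:**
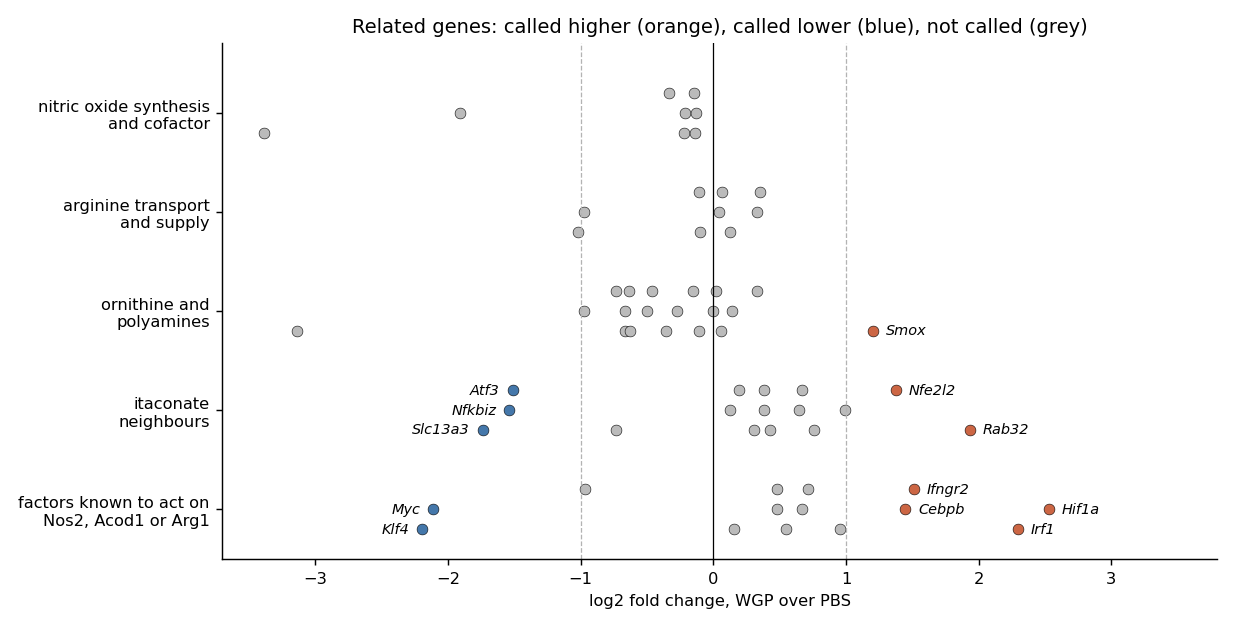
Each circle is 1 of 66 related genes, placed on the x axis by its log2 fold change of WGP over PBS and on the y axis by its list, with dashed lines at the fold required for a call; 4 genes with no counts in 1 of the groups are not drawn. The named circles are the 12 called genes drawn, which lie mostly among the itaconate neighbours and the factors, while no gene of nitric oxide synthesis or arginine transport is coloured.

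Outside these lists, the genes whose levels over the 6 libraries were most like those of Nos2, Arg1 and Acod1 were found by the root mean square difference of centred log2(CPM + 0.5) values. For Nos2 they were Gpnmb, Saa3 and Cxcl9, at differences of 1.07, 1.12 and 1.18. For Arg1 they were Cxcl9, Saa3 and Tgtp1, at 0.981, 0.983 and 1.01. For Acod1 the match was closer, with Fpr2 at 0.161, C3 at 0.181 and Ifi205 at 0.210. Fpr2, a receptor for formylated peptides, went from 24.4, 20.3 and 18.0 CPM in PBS to 279, 343 and 286 CPM in WGP, and C3, the complement component, from 384, 359 and 234 to 2942, 3930 and 3253 CPM. Saa3, an acute phase protein, was at 5.85, 3.52 and 15.0 CPM in PBS and at 384, 1233 and 780 CPM in WGP, highest in WGP replicate 2 as Nos2 and Arg1 were.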

How the data were processed

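RNA of CD45+CD11b+ pancreatic cells was sequenced as poly(A) libraries, 3 from PBS-treated and 3 from WGP-treated mice. The authors aligned reads to mm10 with STAR 2.6 and counted them per Ensembl gene with HTSeq 0.10.0, and the deposited values are raw counts without normalization, in 1 column per library. The annotation release, the strand setting and the handling of duplicate reads are not given in the sources used here. Groups and replicate numbers come from the sample titles. The study describes its samples as separate animals of 1 experiment, so p-values measure the spread between animals within that experiment. No 2 libraries of a group differed by less than sampling noise.

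Counts were tested in R 4.3.3 with edgeR 4.0.16 (quasi-likelihood test after TMM scaling, WGP against PBS, no covariate). Tested were the 14429 protein-coding genes (GENCODE vM21) whose RLE-normalized counts over all 6 libraries came to 10 or more, and p-values were adjusted by Benjamini-Hochberg over all of them. The SE was taken from the log2 fold change and the F statistic. Lower bounds used a floor of 3 counts over a group, which covers counting error only. Lengths per kb are unions of exons. The values of 2 related genes, which stay in the counts of their lists, are not reported here. The script was tested on simulated data. Named by rule were the 10 members, called genes of each related list and otherwise its 3 smallest p-values, paralogues of members, and the 3 genes most like Nos2, Arg1 and Acod1. Related genes named outside this rule were Pts, Spr, Cps1, Otc, Nags, Sat1, Oat, Azin1, Sdha, Sdhb, Sdhc, Sdhd, Irf8, Stat3, Il4ra, Stat6 and Rela. The members, lists, markers and motifs were chosen with earlier results of these data known. Alternatives were DESeq2 1.42.0 (Wald test), voom of limma 3.58.1, RLE, upper-quartile or no scaling beyond totals, other filters, all features, counts divided by the most frequent low count, a covariate for Y-linked counts, each library left out, a block for the replicate number, other thresholds and, chosen after seeing the data, PBS replicate 1 and WGP replicate 2 both left out. Replicate numbers did not pair the libraries.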

Additional observations from a re-analysis of the deposited data

How the results depend on the processing

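Of all genes tested, 1369 were called, 2071 with the adjusted p alone and 568 where a change of 2 on the log2 scale was required, and leaving out 1 library gave 1146 to 1396. Of the 10 members, 6 were called higher and 1 lower, and 4 to 6 were called higher over all 21 alternatives. Leaving out 1 library gave 0 to 1 members called lower, with 0 without PBS replicate 2, PBS replicate 3, WGP replicate 1 or WGP replicate 3. With the Y-linked covariate the member called lower was Odc1 and no longer Ddah2. The cause of these changes was not tested. Related genes called numbered 8 higher and 5 lower, 13 and 9 with the adjusted p alone, and 3 and 2 where a log2 change of 2 was required. No member's log2 fold change reversed under any alternative. Acod1 and Slc7a2 were called under all 19 alternatives, and Arg1 under all 18 that kept it. Nos2 and Arg1 could not be fitted with at least 10 counts required in every library, since both have PBS libraries at 0. With library totals only, the median log2 fold change of all genes tested moved by -0.10. With the replicate number as a block, 1341 genes were called, and 6 members higher and 1 lower. Deviations of same-numbered libraries from their group means correlated at 0.00273, -0.0446 and 0.0105, so the numbers name libraries and do not pair them. With 3 libraries per group, an exact permutation test of a single gene cannot go below p = 0.1.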

Other observations

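Markers of other cell types were summed in the same way, in TMM-scaled CPM, and their part in the levels of the 10 genes was not tested. The sort for CD45 and CD11b should remove acinar, endothelial, mesothelial and fibroblast cells, which lack CD45. Acinar markers, digestive enzymes of the exocrine pancreas, fell, with 7 of 8 called lower, from 1164 to 4647 CPM in PBS to 325 to 543 CPM in WGP. B cell markers fell, with 5 of 5 called lower, and NK cell markers had 1 of 7 called lower, with sums of 50.9 to 234 CPM in PBS and 43.6 to 62.7 CPM in WGP. Of 8 neutrophil markers 1 was called higher, with sums of 1585 to 5308 CPM in PBS and 2267 to 2434 CPM in WGP. Conventional dendritic cell markers had 1 of 6 called lower, at 235 to 249 CPM in PBS and 105 to 197 CPM in WGP. Peritoneal macrophage markers had 1 of 6 called higher, at 63.5 to 181 CPM in PBS and 77.6 to 150 CPM in WGP. Endothelial markers had 1 of 5 called higher, at 24.5 to 114 CPM and 38.8 to 64.5 CPM, and T cell markers 1 of 6 called higher, at 36.8 to 44.4 CPM and 16.5 to 51.3 CPM, with Cd8a at 0 in PBS. No eosinophil or mast cell and basophil marker was called. Eosinophil markers summed to at most 84.8 CPM in a PBS library and to 16.8 to 62.3 CPM in WGP, where Epx and Ear6 were at 0, and mast cell and basophil markers to 0.709 to 12.9 CPM in PBS and at most 1.41 CPM in WGP. No fibroblast or mesothelial marker was called, and among the WGP libraries their sums were high in WGP replicate 2 only.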
